A study of Mus musculus with 6 samples.

Results

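A set of 9 genes of the angiotensin and endothelin systems were followed in mouse aortic valves, chosen by their gene names among the 46983 genes of the deposited table. They were Agt, Ace, Lnpep, Agtr1a, Agtr1b, Agtr2, Edn1, Ece1 and Ednra, and every one of the 9 was found and passed the filter on low values. The valves were taken from wild type C57BL/6J mice at 2 ages, postnatal day 2 (PND2) and 4 months. Each age had 3 libraries, and valves of 5 to 6 mice were pooled for a library. The sample descriptions name no treatment, so age is the only contrast they give. The sex of the pooled mice was not given, and sex-linked genes differed among the libraries of each age. Values are RPKM, read numbers scaled by exonic length and by library total, and library totals ran from 23810507 to 38994657.

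Both systems are peptide hormones made by stepwise cleavage. Angiotensinogen is cut by renin and then by angiotensin-converting enzyme to angiotensin II, which acts through the AT1 receptor to constrict vessels and raise matrix production, while the AT2 receptor is abundant in fetal mesenchyme and often opposes AT1. Preproendothelin is cut by furin-type proteases to big endothelin and by endothelin-converting enzyme to the active peptide, which is released mainly by endothelium and acts on A receptors of mesenchymal and muscle cells and on B receptors. Endothelin signalling to the A receptor is required by the cardiac neural crest, a source of cells for the outflow tract and its valves.

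Between the ages, Agtr2, Edn1, Ednra, Ece1 and Agtr1a fell, and none of the 9 genes rose. The AT2 receptor gene Agtr2 went from 15.9 ± 2.69 RPKM to 0.0946 ± 0.0667 RPKM (mean ± SD, n = 3 per age), the endothelin-1 gene Edn1 was 3.92-fold lower at 4 months, and the endothelin A receptor gene Ednra was 2.12-fold lower. The gene for the main converting enzyme, Ace, stayed the most abundant of the 9 at both ages, at 168 ± 26.8 and 179 ± 29.1 RPKM. Calls come from limma on log2(RPKM + 0.1), 2-sided, adjusted by Benjamini-Hochberg over 25903 genes, at an adjusted p under 0.05. By this rule 5 of the 9 genes were lower at 4 months, against 21.1% of all genes tested, and 0 were higher, against 14.7%. The members were chosen with earlier results of these data known, so the counts are not a test of the 2 systems. The call of Agtr1a was lost under most alternatives. No member was higher at an unadjusted p under 0.05, by voom or by a per-gene unequal-variance test either (0 in each). In either direction 35.8% of all genes were called. With a fold change over 2 as a further condition, 3 of the 9 were lower (Agtr2, Edn1 and Ednra), against 8.47% of all genes. All 3 libraries at 4 months were below all 3 at PND2 for 5 of the 9 genes, against 29.9% of all genes. The median log2 fold change was -0.56 over the 9 genes and -0.14 over all genes tested. For a gene near 0.1 RPKM the added pseudocount makes a fold change smaller than the ratio of its RPKM. In bulk tissue, fewer cells of a type and less RNA per cell cannot be told apart.

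**Figure D1:**
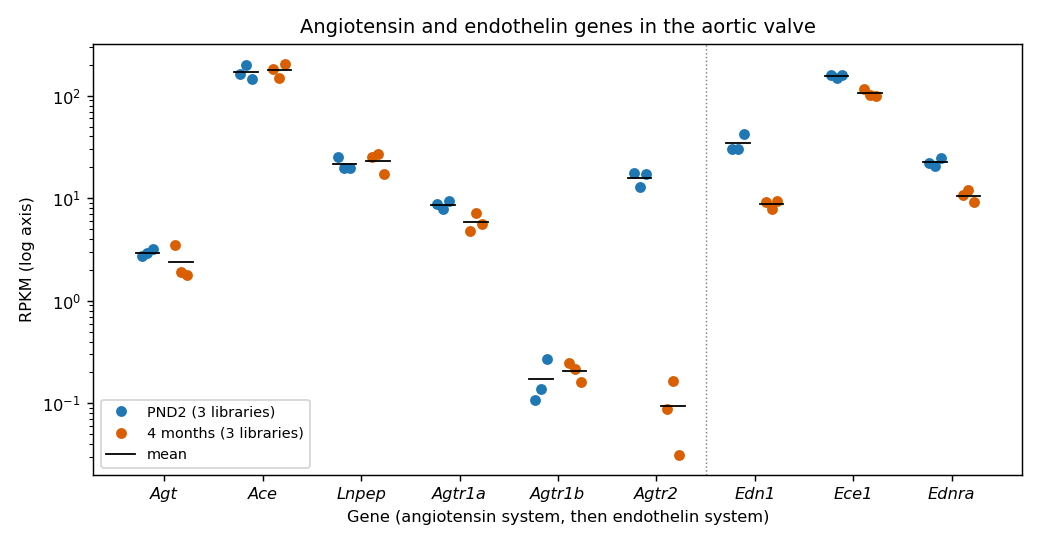
RPKM on a log axis for the 9 genes in each of the 3 PND2 libraries (blue) and the 3 libraries at 4 months (orange), with black bars for the means. Agtr2 is at 12.8 to 17.6 RPKM at PND2 and at most 0.164 RPKM at 4 months, while Ace, Lnpep, Agt and Agtr1b overlap between the ages.

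Agt (ENSMUSG00000031980, chr8:124556534-124569706 of mm10, minus strand) encodes angiotensinogen, the precursor of all angiotensin peptides. Its level was 2.73, 2.91 and 3.16 RPKM in the PND2 libraries and 3.50, 1.89 and 1.79 RPKM in the libraries at 4 months. A single library at 4 months was above all PND2 libraries and the others were below them. The log2 fold change was -0.35 (SE 0.28, 95% interval -1.01 to 0.32, limma adjusted p = 0.382), so no difference was called.

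Ace (ENSMUSG00000020681, chr11:105967945-105989964, plus strand) encodes angiotensin-converting enzyme, which makes angiotensin II and breaks down bradykinin. It was measured at 164, 197 and 144 RPKM at PND2 and at 183, 148 and 206 RPKM at 4 months. The ages overlapped, and the log2 fold change was 0.09 (SE 0.16, 95% interval -0.29 to 0.46, limma adjusted p = 0.718). Of its exonic bases 5.58% are shared with the antisense gene Gm11651, and whether the counting used strand was not stated. Ace has a start at the 5′ end, used in somatic tissues, and an internal start used in the testis. The exon values bear on which start was read, so the bases before both RefSeq starts are printed here (build GRCm38.p6, plus strand, chr11:105967698-105967944 and chr11:105974939-105975188). Capitals mark matches on either strand to AGATAA for GATA factors, TGANTCA for AP-1, TATAAA for the TATA box, CCAAT for NF-Y and GGGCGG for SP factors.
Ace, 5′ start: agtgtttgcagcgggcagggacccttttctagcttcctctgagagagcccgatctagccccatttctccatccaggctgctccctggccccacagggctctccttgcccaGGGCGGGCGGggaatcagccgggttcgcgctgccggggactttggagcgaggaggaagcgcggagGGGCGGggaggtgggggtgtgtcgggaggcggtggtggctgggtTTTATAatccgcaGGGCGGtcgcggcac
Ace, internal start: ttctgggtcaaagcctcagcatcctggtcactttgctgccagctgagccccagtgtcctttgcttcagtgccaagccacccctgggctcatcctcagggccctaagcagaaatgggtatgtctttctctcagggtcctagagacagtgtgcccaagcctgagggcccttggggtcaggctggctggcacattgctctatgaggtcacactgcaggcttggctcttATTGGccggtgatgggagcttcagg
The sequence before the 5′ start held a TATA match and 4 SP matches, and that before the internal start held 1 NF-Y match and none of the others in capitals. Over all 32851 RefSeq windows of 300 bases, 13.6% held the TATA match, 35.7% the SP match and 37.4% the NF-Y match. The annotated exon that begins at the internal start was read at 5.76, 7.52 and 1.92 RPKM at PND2 and at 3.14, 6.00 and 8.28 RPKM at 4 months. These values were 0.988 to 3.29% of the mean of the exons on both sides in the 6 libraries, so the start of the testis form was read far below the rest of the gene at both ages.

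Lnpep (ENSMUSG00000023845, chr17:17527723-17624489, minus strand) encodes a membrane aminopeptidase that cleaves oxytocin and vasopressin and binds the fragment angiotensin IV. Its level was 25.2, 19.7 and 19.8 RPKM at PND2 and 25.3, 27.2 and 17.4 RPKM at 4 months. The library at 4 months with the lowest value was below all PND2 libraries. The log2 fold change was 0.09 (SE 0.19, 95% interval -0.36 to 0.54, limma adjusted p = 0.745).

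Agtr2 (ENSMUSG00000068122, chrX:21484544-21489164, plus strand), the AT2 receptor gene, showed the largest change of the 9 genes. It was measured at 17.6, 12.8 and 17.3 RPKM at PND2, from 2283, 1300 and 1684 reads. At 4 months the values were 0.0885, 0.164 and 0.0312 RPKM, from 11, 13 and 3 reads. All PND2 libraries were far above all libraries at 4 months, and the gene passed the filter on low values through its PND2 libraries. The ratio of the means was 168, and without replicate 2 at 4 months, the library with 13 reads, it was 266. The log2 fold change was -6.41 (SE 0.31, 95% interval -7.14 to -5.67, limma adjusted p = 3.45e-05), and it was -3.94 with a pseudocount of 1, -7.47 with one of 0.01 and -7.60 with voom on the recovered reads. The last coding exon held 5062 reads over the PND2 libraries and 27 at 4 months, while the leader exons and the short form of the coding exon held 0 reads in each library at 4 months. Agtr2 lies on the X chromosome, and Xist, the RNA of the inactive X, was at 108.6, 0.0457 and 0.101 RPKM at PND2 and at 0.154, 109.9 and 40.8 RPKM at 4 months. Ddx3y, a gene of the Y chromosome, was at 6.32, 28.5 and 32.3 RPKM at PND2 and at 37.2, 0 and 21.1 RPKM at 4 months. Xist was high in 1 of 3 PND2 libraries and in 2 of 3 libraries at 4 months, and the part of sex in the Agtr2 values was not tested. Since Agtr2 and Ednra fell together by over 2-fold, the bases before their annotated first exons are printed with the same capitals (GRCm38.p6, chrX:21484374-21484543 on the plus strand and chr8:77724465-77724702 on the minus strand).
Agtr2: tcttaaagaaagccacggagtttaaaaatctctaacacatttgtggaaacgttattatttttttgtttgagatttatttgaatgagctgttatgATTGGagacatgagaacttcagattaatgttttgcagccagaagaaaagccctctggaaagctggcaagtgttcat
Ednra: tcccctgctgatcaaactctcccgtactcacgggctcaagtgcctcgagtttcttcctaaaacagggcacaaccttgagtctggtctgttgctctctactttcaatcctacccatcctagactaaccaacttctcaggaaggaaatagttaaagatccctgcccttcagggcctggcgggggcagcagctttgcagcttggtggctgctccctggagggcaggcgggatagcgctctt
Agtr2 held a single NF-Y match and Ednra none of the motifs in capitals. The RefSeq window of Edn1, which lies almost wholly inside its first annotated exon and is not printed, held 1 GATA match and 1 NF-Y match. GATA matches were present in 11.2% of all windows and AP-1 matches in 7.81%. No motif of this set was held by the windows of all 3 genes. The short E-box string CANNTG, present in 72.3% of all windows, was absent from Edn1, and the SMAD string CAGAC, present in 49.6%, was absent from Agtr2.

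Agtr1a (ENSMUSG00000049115, chr13:30336441-30382867, plus strand) encodes the main rodent AT1 receptor. It was measured at 8.78, 7.93 and 9.34 RPKM at PND2 and at 4.79, 7.24 and 5.64 RPKM at 4 months. The lowest PND2 library was above the highest library at 4 months, and the log2 fold change was -0.57 (SE 0.18, 95% interval -0.99 to -0.15, limma adjusted p = 0.0431). This call was lost under 12 of 17 alternatives, among them median scaling of the libraries (log2 fold change -0.45, adjusted p = 0.114). Of its 4 annotated exons, 3 reached a mean of 0.5 RPKM, and the long coding exon at the 3′ end was the one of these that was lower without overlap, at 0.673 of its PND2 mean.

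Agtr1b (ENSMUSG00000054988, chr3:20314473-20367177, minus strand) encodes the second AT1 receptor of rodents. It was detected with 9, 9 and 17 reads at PND2 and 20, 11 and 10 reads at 4 months, or 0.107 to 0.271 RPKM and 0.161 to 0.249 RPKM. At this depth no difference was detectable (log2 fold change 0.22, 95% interval -0.67 to 1.11, limma adjusted p = 0.692). Of its 2136 exonic words of 47 bases, 39 (1.83%) also occur in Agtr1a, which held 403 to 845 reads per library, so reads from the shared stretch could make up part or all of the Agtr1b values, which are uncertain.

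Setting receptors against each other within a library removes the scaling of the library. RPKM is per length, so Agtr2 and Agtr1a can be compared directly. Agtr2 was 2.00, 1.62 and 1.85 times Agtr1a at PND2 and 0.0185, 0.0227 and 0.00552 times Agtr1a at 4 months, so AT2 receptor RNA was the more abundant at PND2 and AT1 receptor RNA at 4 months. The difference of log2(RPKM + 0.1) went from 0.85 ± 0.16 to -4.98 ± 0.41 (SD, n = 3). Ednra was 1.64, 2.24 and 2.00 times Ednrb, the endothelin B receptor gene, at PND2 and 1.23, 0.928 and 1.13 times Ednrb at 4 months. Agtr1a was 0.399, 0.382 and 0.376 of Ednra at PND2 and 0.445, 0.601 and 0.621 of Ednra at 4 months. In each of these 3 balances the ages did not overlap, with an exact permutation p of 0.1 (2-sided, adjusted p = 0.1), which is the smallest that 3 against 3 libraries can give and does not reach 0.05.

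Edn1 (ENSMUSG00000021367, chr13:42301270-42307989, plus strand) encodes preproendothelin-1, the precursor of the main vascular endothelin. It was measured at 30.1, 30.5 and 42.5 RPKM at PND2 and at 9.18, 7.83 and 9.30 RPKM at 4 months. Every PND2 library was above every library at 4 months. The log2 fold change was -1.94 (SE 0.16, 95% interval -2.32 to -1.57, limma adjusted p = 0.00023).

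Ece1 (ENSMUSG00000057530, chr4:137862237-137965229, plus strand) encodes the membrane protease that releases active endothelin from big endothelin. Its level was 160, 148 and 160 RPKM at PND2 and 116, 103 and 99.2 RPKM at 4 months, without overlap. The ratio of the means was 0.679 and the log2 fold change -0.56 (SE 0.10, 95% interval -0.79 to -0.33, limma adjusted p = 0.00431). Ece1 has several alternative first exons, which give isoforms with different cytoplasmic tails. Relative to a shared downstream exon, the first exon with the highest value was read at 35.3, 40.0 and 48.8% at PND2 and at 46.0, 39.5 and 45.2% at 4 months. The next was read at 33.5, 45.2 and 43.6% at PND2 and at 35.9, 32.5 and 42.7% at 4 months. Both shares overlapped between the ages.

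Ednra (ENSMUSG00000031616, chr8:77663031-77724464, minus strand) encodes the endothelin A receptor. It was measured at 22.0, 20.7 and 24.8 RPKM at PND2 and at 10.7, 12.0 and 9.09 RPKM at 4 months. The ages were apart by more than their spread, with a log2 fold change of -1.08 (SE 0.14, 95% interval -1.41 to -0.76, limma adjusted p = 0.00129). Of its exonic bases 1.66% are shared with 4933431K23Rik.

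**Figure D2:**
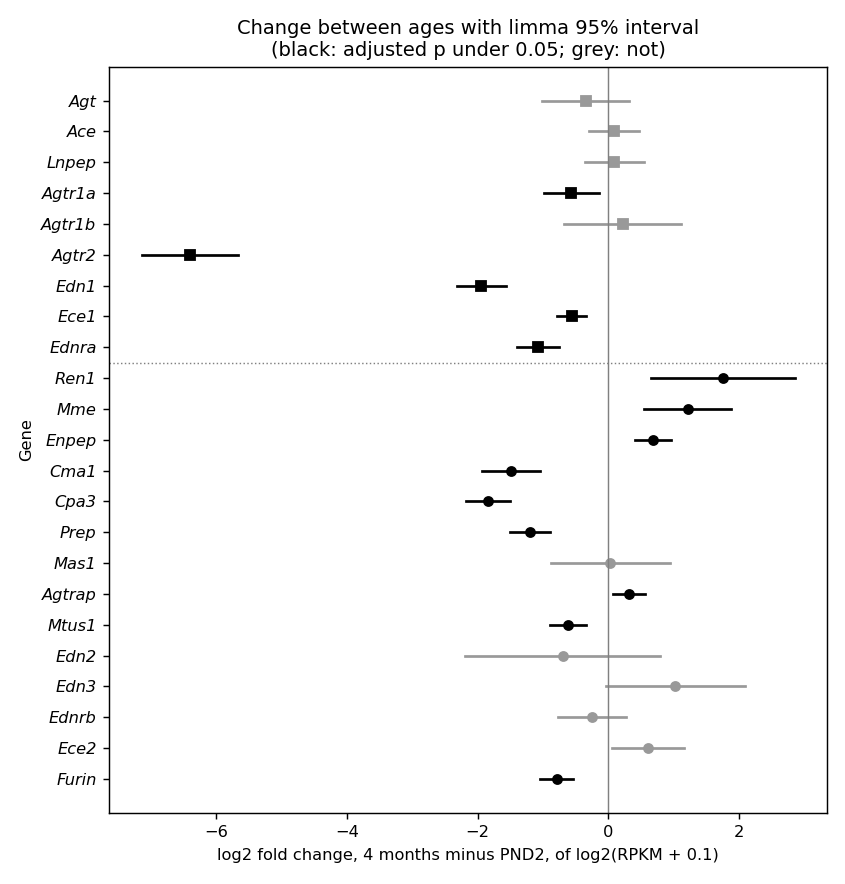
Log2 fold change from PND2 to 4 months with its limma 95% interval for the 9 genes (squares, above the dotted line) and for other genes of both systems (circles). Black marks an adjusted p under 0.05 and grey the rest, and among the 9 genes the black squares are all on the negative side, with Agtr2 at -6.41.

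The exon values were compared to see whether the gene values rested on the whole transcript. All 5 annotated exons of Edn1 were lower at 4 months without overlap, at 0.228 to 0.296 of their PND2 means. All 10 of Ednra were lower without overlap, at 0.372 to 0.502. The Edn1 and Ednra differences were thus spread over each gene.
For Ece1, 25 of 26 annotated exons had a lower mean at 4 months and 21 of them did not overlap, with a median ratio of 0.630. For Ace, 13 of 32 exons had a lower mean and 19 a higher one, and 0 were without overlap. For Lnpep, 6 of 18 had a lower mean and 12 a higher one, again with 0 without overlap. Some annotated exons overlap each other, so these counts are not of independent parts.

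**Figure D3:**
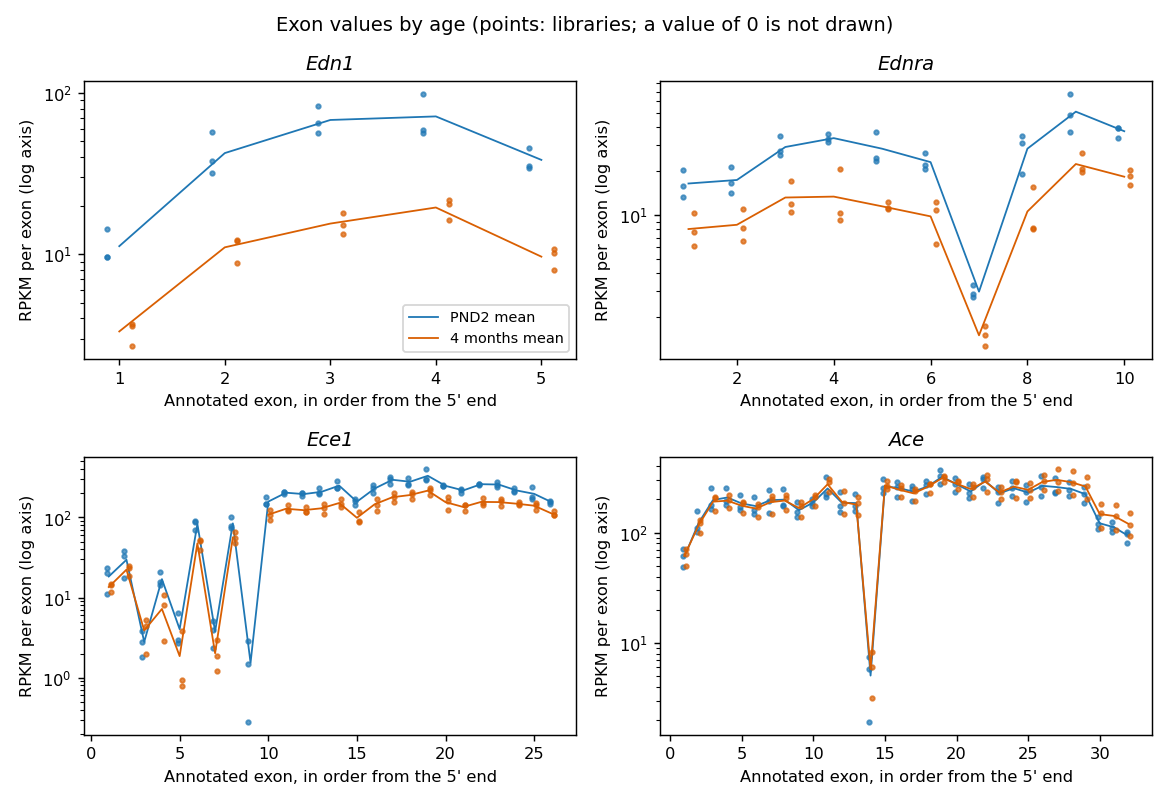
RPKM per annotated exon on a log axis, in order from the 5′ end, for Edn1, Ednra, Ece1 and Ace, with points for the libraries and lines for the means of PND2 (blue) and 4 months (orange). The 2 lines run apart over all 5 exons of Edn1 and all 10 of Ednra and cross repeatedly over Ace, where the dip is the first exon of the testis form.

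Ranked by mean RPKM within PND2, the order was Ace, Ece1, Edn1, Ednra, Lnpep, Agtr2, Agtr1a, Agt and Agtr1b. Neighbours whose libraries overlapped were Ace with Ece1 and Ednra with Lnpep. At 4 months the order was Ace, Ece1, Lnpep, Ednra, Edn1, Agtr1a, Agt, Agtr1b and Agtr2, with overlap between Ednra and Edn1 and between Agtr1b and Agtr2. Agtr2 thus went from the sixth place to the last, and Edn1 from the third to the fifth. The 2 converting enzymes, Ace and Ece1, were at the top at both ages, and Ace stood apart from Ece1 only at 4 months.

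Markers of several cell types moved with age in the same libraries. Of 10 endothelial markers 9 were lower at 4 months (summed RPKM 715 to 968 at PND2 and 430 to 450 at 4 months), and of 10 smooth muscle and pericyte markers 8 were higher and 1 lower (7500 to 8684 and 16927 to 27980). Of 10 fibroblast and valve interstitial markers 3 were higher and 5 lower (6591 to 7227 and 8095 to 10204). Cardiomyocyte markers, from tissue beside the valve, were lower for 4 of 10 (15379 to 17798 and 6631 to 10203), and 9 of 10 adipocyte markers were higher (93.6 to 179 and 514 to 1728). None of the lists had a marker at 0 in all libraries. The part of these shifts in the results was not tested.

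The members were therefore also set against the mean log2 level of the markers of cells known to make them. Relative to endothelial markers, Edn1 was lower at 4 months by a log2 difference of -0.95, while Ace was higher by 1.08 and Ece1 by 0.43. The endothelial markers themselves ran from a log2 fold change of -0.27 (Esam) to -1.58 (Emcn). Ece1, at -0.56, lay within that range, below Esam and Pecam1 (-0.49), so its relative rise depends on which markers are averaged. Ednra and Agtr1a were lower relative to smooth muscle and pericyte markers, by -2.33 and -1.82. Of these 10 markers 8 were themselves higher at 4 months and 1 lower, with Myh11 at a log2 fold change of 3.47 and Notch3 at -1.11. Relative to fibroblast markers, which ran from 1.90 (Dcn) to -0.97 (Postn) with 3 higher and 5 lower, Agtr2 changed by -6.47 and Ednra by -1.15. In these 7 comparisons the ages did not overlap, and the exact permutation p was 0.1, the smallest possible (2-sided, adjusted p = 0.129 over 9 comparisons). Agt (-0.42, exact p = 0.4) and Lnpep (0.02, exact p = 1.0) overlapped between the ages relative to fibroblast markers. Beside the mean of the endothelial markers Ace and Ece1 were thus relatively higher and Edn1 relatively lower at 4 months, in a design that cannot reach 0.05. For Ece1 this did not hold beside each single marker.

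**Figure D4:**
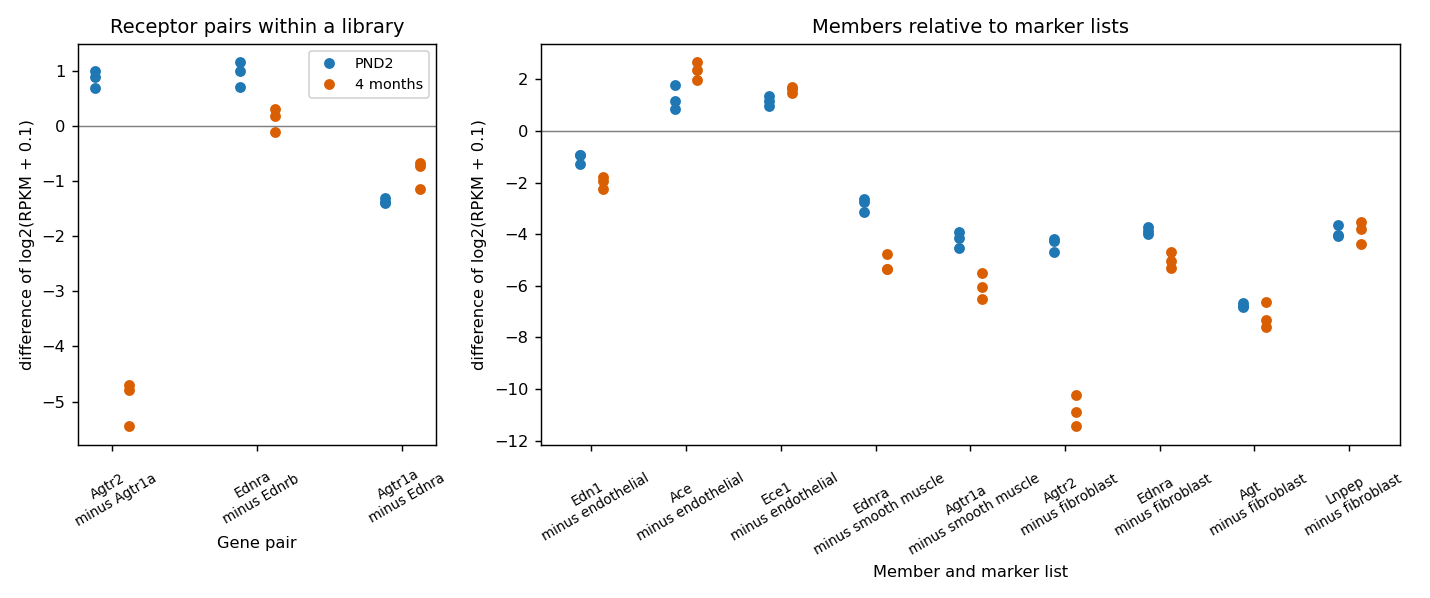
Differences of log2(RPKM + 0.1) in each library for pairs of receptors (left) and for members minus the mean of a marker list (right), with PND2 in blue and 4 months in orange. Agtr2 minus Agtr1a goes from above 0 to between -4.70 and -5.45, and Ace minus endothelial markers is higher in every library at 4 months than in any at PND2.

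Among the other genes of the pathways, 72 were listed and 65 tested, of which 24 were higher and 14 lower at 4 months (58.5% called), with a median log2 fold change of 0.24. Over all genes tested, 14.7% were higher and 21.1% lower (35.8% called), with a median of -0.14. In the list of angiotensin peptide processing, 5 of 14 genes were higher and 6 lower, and 6 of the 14 passed with a fold change over 2, against 17.2% of all genes. Ren1, which encodes renin, the enzyme that starts the cascade, was at 0.727, 2.12 and 2.68 RPKM at PND2 and at 4.27, 7.93 and 5.50 RPKM at 4 months. It was higher in every library at 4 months (log2 fold change 1.76, SE 0.47, limma adjusted p = 0.0245), a call lost under 4 of 17 alternatives. Mme (neprilysin) rose by 1.22 on the log2 scale. Cma1 (chymase) fell by 1.49, Cpa3 (carboxypeptidase A3) by 1.84 and Prep (prolyl endopeptidase) by 1.20 (limma adjusted p from 0.000192 to 0.0146 for these 4). Cma1 and Cpa3 are mast cell products, and whether mouse Cma1 makes angiotensin II was not tested. Of 6 mast cell markers, which include both genes, 4 were lower (summed RPKM 120 to 172 and 55.6 to 72.4), and their part in these values was not tested. The marker Mcpt4 was not called, at 24.0 ± 15.3 and 24.8 ± 4.92 RPKM (limma adjusted p = 0.717).

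Of the remaining endothelin genes 0 of 4 tested were called by limma, 1 was higher at an unadjusted p under 0.05, 1 was called by voom (Ece2) and 0 by the per-gene test. Ednrb was at 13.4, 9.26 and 12.4 RPKM at PND2 and 8.73, 13.0 and 8.04 RPKM at 4 months, with overlap (log2 fold change -0.25, SE 0.22, limma adjusted p = 0.420). Ece2, a second converting enzyme, was at 3.06 ± 0.515 and 4.80 ± 1.29 RPKM (limma adjusted p = 0.0823). The genes of the other ligands were low. Edn3 was at 0.0956 to 0.287 RPKM at PND2 (12 to 46 reads) and 0.336 to 0.858 RPKM at 4 months (40 to 84 reads). Its ages did not overlap, but it was not called (log2 fold change 1.03, limma adjusted p = 0.12). Edn2 was at 0.0351 to 0.381 and 0 to 0.220 RPKM, from 0 to 17 reads. Of the proprotein convertases, which cut big endothelin from its precursor, 3 of 4 were lower and 1 higher. Over all genes tested, 21.1% were lower and 14.7% higher. The convertases were named after their values were seen. Furin fell by 0.79, Pcsk5 by 0.53 and Pcsk7 by 0.36 on the log2 scale, and Pcsk6 rose by 0.96. Mas1, the receptor of angiotensin (1-7), was at 0.338 to 0.783 and 0.409 to 0.818 RPKM (limma adjusted p = 0.959).

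Downstream of the receptors, 7 of 17 G protein signal transducers were higher and 1 lower, against 14.7% and 21.1% of all genes tested. Their median log2 fold change was 0.21. The phospholipases Plcb4 and Plcb1, which release inositol trisphosphate, rose by 1.57 and 1.10 on the log2 scale, its receptor gene Itpr1 by 1.39 and the cytoskeletal kinase gene Rock1 by 1.35 (limma adjusted p from 0.000153 to 0.00332). Of 9 genes known to respond to AT1 signalling, 5 were higher and 2 lower, against the same shares of all genes tested. Edn1 was one of the lower ones. Nox4, a hydrogen peroxide producing oxidase, was at 2.26 ± 0.396 and 61.6 ± 7.69 RPKM (log2 fold change 4.71, SE 0.17, limma adjusted p = 1.38e-05). Cybb, the oxidase subunit of phagocytes, rose by 1.97 (limma adjusted p = 0.000733). Spp1 (osteopontin) was at 2.63 to 2.77 RPKM at PND2 and rose to 29.0, 64.5 and 192 RPKM at 4 months (limma adjusted p = 0.00128, lost under the per-gene test at 0.0976), and 18.75% of its exonic bases are shared with Gm42793. Ccl2, a monocyte chemokine, fell by 1.09 (limma adjusted p = 0.0404), a call lost under 11 of 17 alternatives. Of 8 markers of macrophages, cells that express Spp1 and Cybb, 6 were higher at 4 months, and their part was not tested. Nr3c2, the mineralocorticoid receptor through which aldosterone acts, rose by 2.61 on the log2 scale (1.41 ± 0.461 to 8.81 ± 0.658 RPKM, limma adjusted p = 0.000483).

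The genes whose values followed Agtr2, Edn1, Ednra and Agtr1a most closely were found by Pearson's r of log2(RPKM + 0.1) over the 6 libraries, among 14152 protein-coding genes. For Agtr2 these were N4bp2, Usp16 and Ercc6 (each r = 0.999), for Edn1 Celsr1 (0.999), Cmtm3 (0.998) and Wdr45b (0.998), and for Ednra Lpcat3 (0.999), Metap2 (0.999) and March3 (0.997). For Agtr1a they were Ndufa9 (0.996), Fh1 (0.993) and Myh6 (0.993). With 3 libraries per age, r mostly reflects the step between the ages: 2824 genes had r above 0.9 with Agtr2, 2731 with Edn1, 2573 with Ednra and 648 with Agtr1a. Myh6 is one of the cardiomyocyte markers, and its libraries had the same order as those of Agtr1a within each age. It was at 3268, 3067 and 3670 RPKM at PND2 and at 1793, 2730 and 1968 RPKM at 4 months. Another of these markers, Myh7, had a different order at PND2. The part of cardiomyocyte RNA in the Agtr1a values was not tested.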

How the data were processed

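Valves were frozen after isolation, RNA was taken up with TRI reagent, and libraries were made with a TruSeq stranded kit and sequenced as 50-base read pairs. After trimming, the authors mapped the pairs to mm10 (TopHat2 2.1.0), counted on Ensembl release 83 genes and exons (easyRNASeq 2.4.7) and deposited RPKM values. R 3.2.2 is also named in the processing notes. The study's replacement of values of up to 10 reads was not present in these values, of which 32408 stand for 1 to 10 reads. Whether the totals count reads or pairs, and whether counting used strand, is not stated. Every gene value above 0 (100%) was a whole number of reads once multiplied out by length and total (tolerance 0.01 reads), and 1 read per kilobase was worth 0.0256 to 0.0420 RPKM. RPKM intervals and limits from reads cover counting error only.

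Ages were compared with limma 3.58.1 (R 4.3.3) using log2(RPKM + 0.1) of the genes that reached 0.1 RPKM in 3 libraries, with eBayes on a trend, no covariate and Benjamini-Hochberg adjustment over all genes tested. Replicates were separate pools. Balances of receptors and levels relative to markers were tested with exact permutation tests. Correlation of log2 values across genes was 0.961 to 0.970 within an age. Alternatives were a pseudocount of 1 or 0.01, omission of the filter or of the trend, a minimum of 1 RPKM, an unequal-variance test gene by gene as in the study, median scaling, quantile normalization, a replicate block, a floor of 10 reads, voom on the recovered reads, each library left out in turn, the median of markers in place of the mean, and exon minimums of 0.1 and 2 RPKM. The unequal-variance test was run here on log2(RPKM + 0.1), without the study's replacement of values of up to 10 reads. The steps were tested on simulated data. The members and lists were chosen with earlier results of these data known. Named are all members, listed genes called with a fold change over 2 and a mean of at least 1 RPKM at either age, the ligands, receptors and enzymes Ren1, Mas1, Mme, Ednrb, Edn3, Edn2 and Ece2, and the 3 genes most like each of Agtr2, Edn1, Ednra and Agtr1a. Some genes that this rule names are not reported here. Others, such as Enpep, Agtrap, Mtus1 and Furin in the plot of changes, were chosen after their values were seen. Sequences are RefSeq windows of 250 bases before to 50 after a start (GRCm38.p6), found for 8 of the 9 members. The software was Python 3.11.15 with matplotlib 3.10.9, scipy 1.17.1, pandas 2.3.3 and numpy 2.4.6, and in R the package data.table in version 1.17.8.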

Additional observations from a re-analysis of the deposited data

How the results depend on the processing

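Agtr2, Edn1, Ednra and Ece1 kept their direction and their call under all 17 alternatives, with highest adjusted p-values from limma or the per-gene test of 0.0203, 0.0323, 0.0353 and 0.0448. The size for Agtr2 ran from -7.60 with voom to -3.94 with a pseudocount of 1, and Ednra fell short of a 2-fold change with median scaling (-0.96) and without replicate 3 at 4 months (-0.98). Agtr1a kept its direction but lost its call without a filter, without a trend, with the per-gene test, with the replicate block and with the floor of 10 reads (log2 fold change -0.57 in each), with median scaling (-0.45) and with quantile normalization (-0.53). Without 1 library Agtr1a ran from -0.73 to -0.43, and leaving out any library except replicate 2 at 4 months ended the call. Calls among the 9 members were 4 to 5 without 1 library. Ace ran from -0.022 to 0.22 and Lnpep from -0.033 to 0.29 without 1 library, and Mas1 from -0.25 to 0.25, with -0.014 under voom. The level of Lnpep relative to fibroblast markers ran from -0.17 to 0.27, and that of Agt was 0.19 with the median of the markers. Ren1 was not called without replicate 2 (1.52) or replicate 3 (1.78) at 4 months, nor with the per-gene test (adjusted p = 0.159) or the floor of 10 reads (adjusted p = 0.0674). Mme, Rgs2, Spp1 and Nr3c2 lost their calls with the per-gene test alone, and Spp1 ran from 3.96 without replicate 3 at 4 months to 5.32 without replicate 1 at 4 months. Ccl2 (-1.42 to -0.84 without 1 library) lost its call without PND2 replicate 1 or 2 or replicate 1 or 2 at 4 months. The per-gene test called 15 other pathway genes in place of 38 and 3408 of all genes in place of 9273, and without 1 library 26 to 37 pathway genes were called. Median scaling moved the median of all genes from -0.14 to -0.02 and the calls from 3810 higher and 5463 lower to 4601 higher and 4129 lower. Replicate numbers did not pair the samples: deviations of same-numbered samples correlated at 0.0439, -0.0608 and -0.160, and with the replicate block 7167 genes and 4 members were called. At an exon minimum of 0.1 RPKM, 2 exons of Agtr1a in place of 1 were lower without overlap. Agtr1b, and Agtr2 at 4 months, were limited by 3 to 20 reads per library. The cause of these changes was not tested.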

Other observations

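The genes that switch off signalling by these receptors were not described above, and their names were chosen after their values were seen except for Rgs2. Of 9 genes of receptor desensitisation, 4 were higher and 2 lower at 4 months, against 14.7% and 21.1% of all genes tested. Rgs2, a regulator that speeds the turn-off of Gq, rose from 7.56 ± 1.45 to 15.7 ± 1.85 RPKM (SD, n = 3, limma adjusted p = 0.0033), and Rgs4 was 37.7 ± 8.99 and 64.0 ± 9.19 RPKM (limma adjusted p = 0.0189). Rgs5, a regulator abundant in pericytes, was 171 ± 53.8 at PND2 and 83.4 ± 10.7 RPKM at 4 months (limma adjusted p = 0.0191), and Rgs3 was 19.4 ± 3.52 and 9.99 ± 0.668 RPKM (limma adjusted p = 0.00301). Regulators of the same family thus moved in both directions.

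Of 4 tested partners of the angiotensin receptors, 1 was higher and 1 lower at 4 months, against 14.7% and 21.1% of all genes tested. Agtrap, which binds the AT1 receptor, was 15.3 ± 0.833 and 19.0 ± 1.19 RPKM (limma adjusted p = 0.0481), and Mtus1, which binds the AT2 receptor, fell from 54.9 ± 3.12 to 36.0 ± 4.62 RPKM (limma adjusted p = 0.00627). Mrgprd, the alamandine receptor, was listed at 0 in all 6 libraries. Of the neural crest targets of Ednra, 0 of 3 tested were called by limma, also at an unadjusted p under 0.05, by voom or by the per-gene test. Dlx5 and Dlx6 among them were low, at 0.116 to 0.785 and 0.102 to 0.349 RPKM over the 6 libraries. Dlx2 and Dlx3 did not pass the filter, so the count rests largely on Hand2. Hand2, a transcription factor of the outflow tract, was 67.1 ± 4.91 and 58.7 ± 4.71 RPKM (limma adjusted p = 0.180).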
